A study of Mus musculus with 6 samples.

Results

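The major histocompatibility complex (MHC) of the mouse, H2, and the genes that load and regulate its molecules were examined in whole hearts of mice that differ in Na/K-ATPase α1. The genes were those whose name starts with H2-, together with B2m, Tap1, Tap2, Tapbp, Cd74, Ciita and Nlrc5, which gave 52 of the 54532 genes in the count table. RNA sequencing covered 3 hearts of resistant mice (a1r/ra2s/s at the genes of Na/K-ATPase α1 and α2; mice 368, 369 and 370) and 3 hearts of sensitive mice (a1s/sa2s/s; mice 379, 380 and 381). Rodent α1 binds cardiotonic steroids such as ouabain weakly, and the sensitive mice carry substitutions in α1 in every cell that raise this affinity. Both genotypes carry the sensitive form of α2, which together with resistant α1 is the native state of the mouse. All mice were C57BL/6 by strain background, 3 months old and male. The authors describe their controls in general as littermates and the resistant mice of the sequencing as age-matched. The labels give no litter. The counts per gene do not show the α1 substitutions, so the genotype rests on the labels, and the H2 haplotype of the mice was not given in the sources used here.

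MHC class I molecules sit on nearly all nucleated cells, where a heavy chain and β2-microglobulin hold a peptide that was made in the cytosol and pumped into the endoplasmic reticulum by the TAP transporter. MHC class II molecules are made mainly by professional antigen-presenting cells, among them dendritic cells, macrophages and B cells, and take up peptides from endocytosed protein with the help of the invariant chain and H2-DM. Interferon-γ induces both pathways, class II through the transactivator CIITA and class I in part through NLRC5. In the healthy heart, class II transcripts come mostly from resident leukocytes, which are a minority beside cardiomyocytes, endothelial cells and fibroblasts.

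Hearts had 19309312 to 20470065 counts, and the 52 genes took 0.0705 to 0.132% of them. Levels are given as CPM, which are counts relative to the library size of each heart, after TMM scaling, and as CPM per kb of gene length where genes are compared with each other. A count of 0 allows up to 3 counts, or 0.143 to 0.158 CPM depending on the heart, for counting error only. In RNA from a whole heart, fewer cells of a type and less RNA per cell cannot be told apart.

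No MHC or antigen presentation gene passed the test for a difference between the genotypes. Of the 52 genes, 26 had enough counts to be tested, 18 had no count in any heart and 8 had a few. In the quasi-likelihood test of edgeR, after Benjamini-Hochberg adjustment across all genes tested, 0 of the 26 had an adjusted p under 0.05, where 1.44% of all 14866 genes tested did. None reached an unadjusted p under 0.05 either, against 14.5% of all genes, and DESeq2, which gave 3 of them no adjusted p, called 0 of the 26, against 3.65% of the 11038 genes to which it gave an adjusted p. The smallest adjusted p by edgeR was 0.408, for H2-DMb2. In none of the 26 did the CPM of the genotypes fail to overlap, which happened in 20% of all genes tested. The point estimates were mostly below 0, in 22 of 26 genes against 51.6% of all genes tested. The median log2 fold change, sensitive over resistant, was -0.23 against -0.01 over all genes. These summaries depended on single hearts. Without mouse 370, 11 of 28 genes had an unadjusted p under 0.05, and the median of the 26 was -0.40. Without mouse 381 none of 28 did, and the median was -0.02. With mice 370 and 381 both left out, 6 of 28 had an unadjusted p under 0.05. With no filter on low counts, 8 of 34 did. None passed an adjusted p under 0.05 by edgeR in any of these fits. The share of all genes with an unadjusted p under 0.05 was not computed in these fits.

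**Figure D1:**
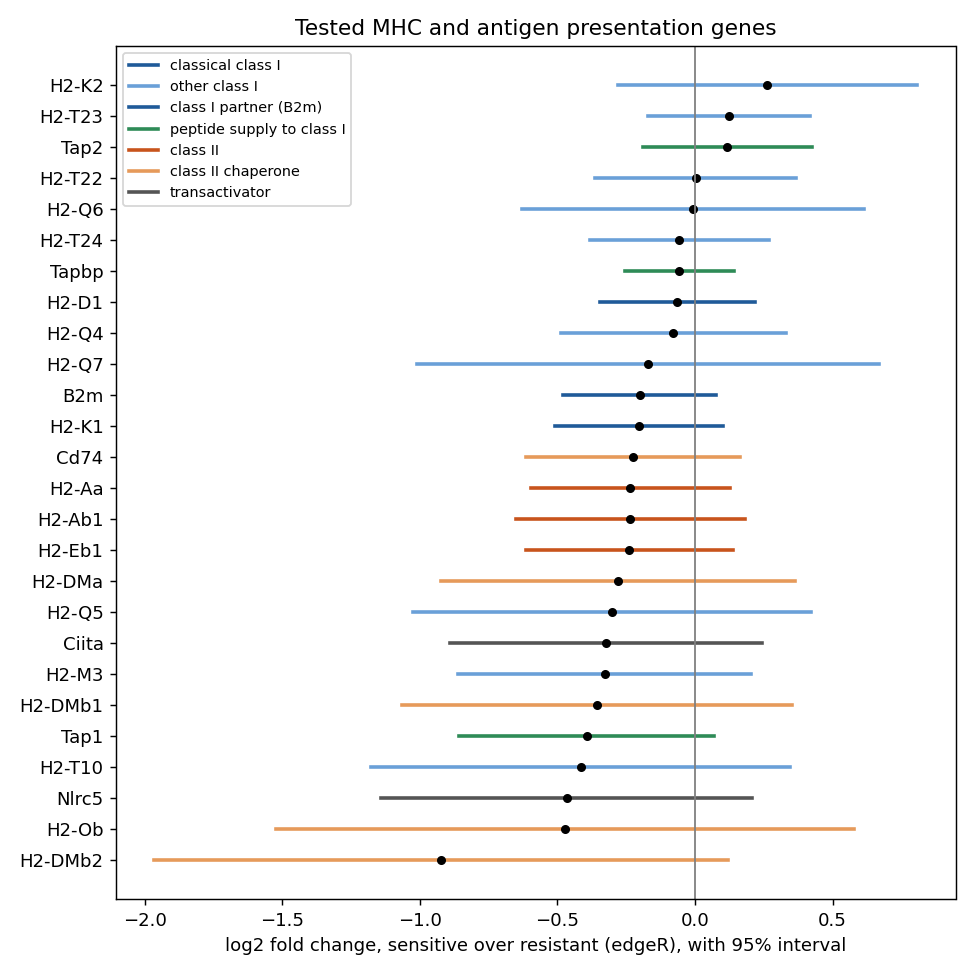
Log2 fold change of sensitive over resistant hearts by edgeR for the 26 tested genes, on a linear axis of log2 values. Points are estimates from 3 hearts per genotype and lines their 95% intervals, coloured by role; all 26 intervals cross 0, and H2-DMb2 at -0.92 lies lowest.

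The antigen-presenting part of class II, the α and β chains, was detected as 3 transcripts. H2-Aa encodes the α chain of the A molecule (ENSMUSG00000036594, chromosome 17, 34282744 to 34287827, GRCm38) and had 63.4, 69.7 and 43.4 CPM in resistant mice 368, 369 and 370, and 56.1, 57.9 and 36.0 CPM in sensitive mice 379, 380 and 381. Mouse 369 was the highest and mouse 381 the lowest, and the genotypes overlapped. The means were 58.8 ± 13.8 and 50.02 ± 12.1 CPM (SD, n = 3). This gave a log2 fold change of -0.23 (SE 0.17, 95% interval -0.60 to 0.13, adjusted p = 0.563 by edgeR). H2-Ab1, its β chain, had 49.0, 57.9 and 33.4 CPM in resistant hearts and 46.1, 46.8 and 26.4 CPM in sensitive hearts. H2-Eb1, the β chain of the E molecule, had 50.5, 60.4 and 37.4 CPM in resistant hearts and 48.7, 48.1 and 28.9 CPM in sensitive hearts. Both had, like H2-Aa, the highest value in mouse 369 and the lowest in mouse 381, and the genotypes overlapped. Their log2 fold changes were -0.24 (SE 0.20, 95% interval -0.65 to 0.18) for H2-Ab1 and -0.24 (SE 0.18, 95% interval -0.62 to 0.14) for H2-Eb1.

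The 3 chains kept close proportions in every heart. The ratio of H2-Aa to H2-Ab1 in CPM lay between 1.20 and 1.37 over the 6 hearts, and that of H2-Aa to H2-Eb1 between 1.152 and 1.26. H2-Aa itself varied 1.61-fold between the highest and lowest hearts of each genotype, and the genotype means stood 1.18-fold apart. Per length, H2-Eb1 was the most abundant chain, with a mean of 38.6 CPM per kb over all hearts, followed by H2-Aa with 29.0 and H2-Ab1 with 26.4. The α chain that pairs with H2-Eb1 is annotated as a pseudogene, H2-Ea-ps, and had 0 counts in all 6 hearts. H2-Pa and H2-Pb, also class II pseudogenes, were at 0 as well.

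H2-Eb2, another E β chain gene, had 7, 6 and 1 counts in resistant hearts and 0, 0 and 2 counts in sensitive hearts. These counts were too low to be tested, and mouse 370 lay below mouse 381. No MHC gene was counted almost only in one genotype. By the stricter of the definitions used, no heart over 3 counts in one genotype and at least 10 in every heart of the other, 0 of the 52 genes qualified, against 3 genes or 0.0106% of the 28183 genes with a count. By the wider definition, mean CPM at least 5 times apart without overlap and at least 10 counts in every heart of the higher genotype, 0 of the 52 qualified against 12 genes or 0.0426%. None of the 3 that met the stricter definition, Selenbp2, Hist1h2al and Chil3, lies on chromosome 17, and all were counted in sensitive hearts. The wider definition held genes higher in either genotype. Among them, Dnph1 lies on chromosome 17 at 46496711 to 46499624, beyond the last H2 gene. It had 19, 25 and 21 counts in resistant hearts and 4, 4 and 4 counts in sensitive hearts.

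The promoters of 2 class II chains are shown because the chains moved together from heart to heart, and because class II promoters share a conserved Y box, CCAAT, that binds NF-Y beside the sites to which CIITA is recruited. Each is the 250 bases before the RefSeq start on GRCm38.p6, 5′ to 3′ in the direction of the gene. Capitals mark matches, on either strand, to CCAAT, to GAANNGAAA or to GGG and CCC with any 4 bases between them. GAANNGAAA resembles interferon-stimulated response elements but is not their full consensus, and the last pattern is a reduced κB site. Elements with other spacings were not searched.
H2-Aa, chr17:34287824-34288073, minus strand: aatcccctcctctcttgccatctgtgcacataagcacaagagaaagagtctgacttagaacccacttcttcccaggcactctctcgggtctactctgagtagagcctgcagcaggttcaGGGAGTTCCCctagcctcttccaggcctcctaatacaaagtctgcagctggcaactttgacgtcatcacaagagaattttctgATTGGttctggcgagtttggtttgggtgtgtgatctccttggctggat
H2-Eb1, chr17:34305617-34305866, plus strand: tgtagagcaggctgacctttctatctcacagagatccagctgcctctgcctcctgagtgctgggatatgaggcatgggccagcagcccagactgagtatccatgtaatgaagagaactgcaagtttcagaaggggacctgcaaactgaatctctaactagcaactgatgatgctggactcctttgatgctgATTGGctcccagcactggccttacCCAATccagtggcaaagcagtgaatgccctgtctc
The H2-Aa window held 1 CCAAT match, written ATTGG on this strand, and 1 match to the reduced κB site, and the H2-Eb1 window held CCAAT on both strands. RefSeq promoters were found for 17 of the 26 tested genes, 6 of them class II or class II chaperone genes. CCAAT was in 6 of these 6, GAANNGAAA in 0 and the reduced κB site in 1. A gene counted if any of its windows matched, while the shares that follow are of single windows. H2-DMa had a window without CCAAT and another with it at -198 to -194. Over all 32817 promoter windows of this length, the shares were 33.8% for CCAAT, 6.31% for GAANNGAAA and 10.3% for the reduced κB site. A match describes letters and not a bound site.

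Cd74, the invariant chain that escorts new class II molecules to the endosome, was the most abundant class II gene, at a mean of 87.1 CPM per kb. It had 132, 166 and 99.1 CPM in resistant hearts and 132, 130 and 76.9 CPM in sensitive hearts. Mouse 369 was again highest and mouse 381 lowest, and mouse 368 and mouse 379 were level. The log2 fold change was -0.23 (SE 0.18, 95% interval -0.61 to 0.16). H2-Aa stood at 0.420 to 0.481 times Cd74 in CPM in every heart.

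The genes of H2-DM, which exchanges the invariant chain fragment for peptide, were far lower. H2-DMa, its α chain, had 4.68, 5.16 and 2.31 CPM in resistant hearts and 4.07, 2.37 and 3.58 CPM in sensitive hearts. H2-DMb1, a β chain, had 5.01, 5.54 and 2.01 CPM in resistant hearts and 4.22, 3.26 and 2.33 CPM in sensitive hearts. In both, mouse 370 was the lowest of all 6 hearts and the genotypes overlapped. The log2 fold changes were -0.28 (SE 0.30, 95% interval -0.92 to 0.37) for H2-DMa and -0.36 (SE 0.33, 95% interval -1.07 to 0.35) for H2-DMb1.

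H2-DMb2, the other β chain gene, was singled out after its values were seen, since it had the largest change in size of the 26. It had 29, 32 and 10 counts in resistant hearts and 11, 13 and 11 counts in sensitive hearts. Mice 368 and 369 were high, and mouse 370 was as low as the sensitive hearts. The log2 fold change was -0.92 with a wide interval (SE 0.49, 95% interval -1.97 to 0.12, adjusted p = 0.408 by edgeR), and leaving out 1 heart at a time moved it between -1.27 and -0.65. H2-DMb1 and H2-DMb2 are near copies, with 11.3% and 10.3% of their 100-base transcript windows identical between them, so their separate counts are uncertain there. H2-Ob, the β chain of H2-DO, which restrains H2-DM in B cells and some other cells, had 24, 55 and 22 counts in resistant hearts and 12, 40 and 16 counts in sensitive hearts. Its partner H2-Oa had 1, 2 and 4 counts against 6, 0 and 0 and was not tested.

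**Figure D2:**
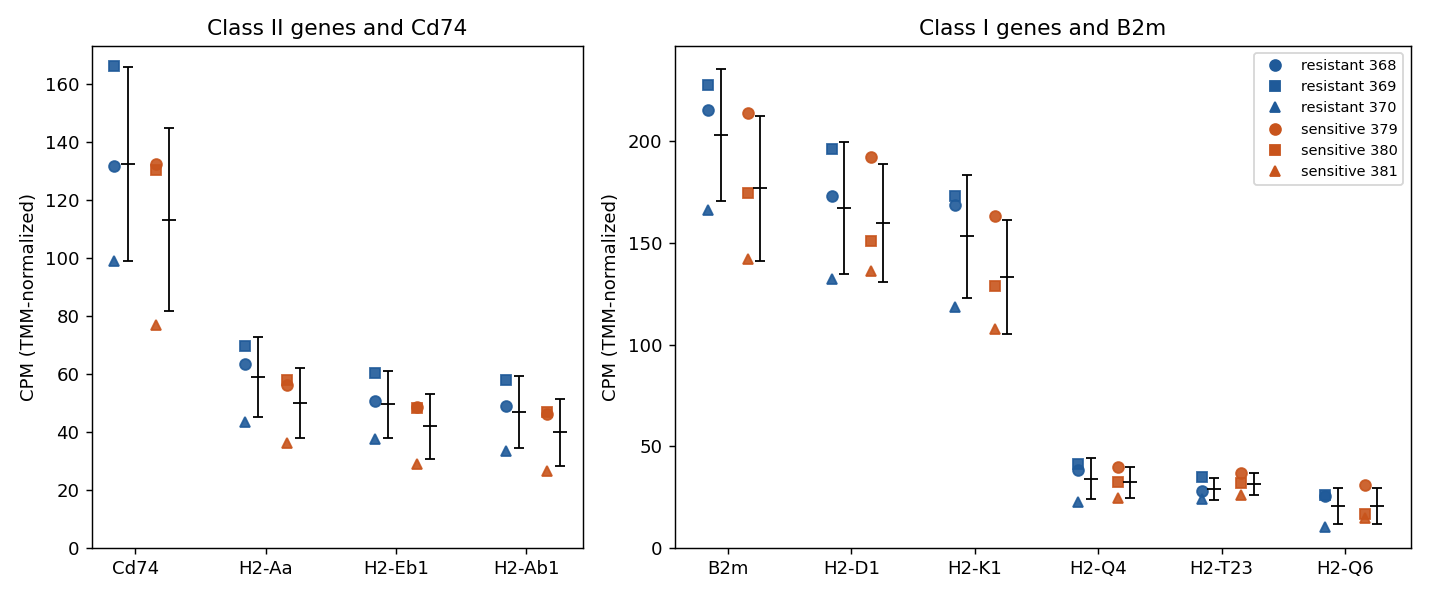
CPM of the more abundant class I and class II genes in each heart on linear axes from 0. Points are hearts, coloured by genotype with a shape per mouse, and black bars are the mean and SD of 3; for H2-Aa the resistant hearts span 43.4 to 69.7 CPM and the sensitive hearts 36.0 to 57.9 CPM, and the genotypes overlap in each gene drawn.

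Class I was the more abundant arm. Its heavy chains summed to 183 ± 38.8 CPM per kb in resistant and 171 ± 35.6 in sensitive hearts, against 102 ± 24.7 and 86.4 ± 22.99 CPM per kb for the class II chains (SD, n = 3). B2m, which encodes β2-microglobulin (ENSMUSG00000060802, chromosome 2, 122147686 to 122153083, GRCm38), was the highest of all the genes at a mean of 221 CPM per kb. It had 216, 228 and 166 CPM in resistant hearts and 214, 174 and 142 CPM in sensitive hearts. The highest heart was mouse 369, the lowest was mouse 381, and mouse 379 lay among the resistant hearts. The means were 203 ± 32.5 and 177 ± 35.9 CPM (SD, n = 3), with a log2 difference of -0.20 (SE 0.13, 95% interval -0.48 to 0.08, adjusted p = 0.513 by edgeR).

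The classical heavy chains, which present peptide to CD8 T cells, are H2-K1 (chromosome 17, 33996017 to 34000333) and H2-D1 (chromosome 17, 35262730 to 35267499). H2-K1 had 168, 173 and 119 CPM in resistant hearts and 163, 129 and 108 CPM in sensitive hearts. H2-D1 had 173, 196 and 132 CPM in resistant hearts and 192, 151 and 136 CPM in sensitive hearts. The genotypes overlapped in both genes, and in H2-D1 the lowest heart was a resistant one, mouse 370. The log2 fold changes were -0.20 (SE 0.14, 95% interval -0.51 to 0.10) for H2-K1 and -0.06 (SE 0.13, 95% interval -0.35 to 0.22) for H2-D1. Leaving out mouse 369 moved the H2-D1 value to 0.07.

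H2-K1 was tied to B2m at 0.713 to 0.782 times its CPM in every heart. The ratio of H2-K1 to H2-D1 was 0.974, 0.883 and 0.896 in resistant hearts and 0.848, 0.852 and 0.791 in sensitive hearts. It was lower in every sensitive heart than in every resistant heart. This was the only 1 of 8 ratios computed whose genotypes did not overlap, it was picked out after the values were seen, and it was not tested. H2-D1 shares 3.59% of its 100-base transcript windows with another gene and H2-K1 0.957%.

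The promoters of 4 class I genes are printed because H2-Q6 and H2-Q7 are near copies that stood at 9.85 and 2.79 CPM per kb, with H2-K1 and B2m as the classical pair for comparison. That gap is in part one of the gene lengths used, 2085 bases for H2-Q6 and 4265 for H2-Q7. In CPM, the resistant and sensitive means were 20.6 and 20.5 for H2-Q6 and 12.6 and 11.2 for H2-Q7. The windows and the capitals are as for class II above.
H2-K1, chr17:34000348-34000597, minus strand: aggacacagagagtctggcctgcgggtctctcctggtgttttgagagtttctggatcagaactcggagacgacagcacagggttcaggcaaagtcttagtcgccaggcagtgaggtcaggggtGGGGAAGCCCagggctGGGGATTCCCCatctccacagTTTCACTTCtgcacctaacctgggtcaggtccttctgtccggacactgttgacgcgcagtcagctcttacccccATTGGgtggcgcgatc
H2-Q6, chr17:35424600-35424849, plus strand: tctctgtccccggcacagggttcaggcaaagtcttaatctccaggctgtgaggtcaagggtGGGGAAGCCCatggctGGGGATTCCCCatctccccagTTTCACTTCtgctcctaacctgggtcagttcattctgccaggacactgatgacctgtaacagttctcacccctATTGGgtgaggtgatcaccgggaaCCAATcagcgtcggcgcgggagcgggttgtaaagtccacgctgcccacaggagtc
H2-Q7, chr17:35438905-35439154, plus strand: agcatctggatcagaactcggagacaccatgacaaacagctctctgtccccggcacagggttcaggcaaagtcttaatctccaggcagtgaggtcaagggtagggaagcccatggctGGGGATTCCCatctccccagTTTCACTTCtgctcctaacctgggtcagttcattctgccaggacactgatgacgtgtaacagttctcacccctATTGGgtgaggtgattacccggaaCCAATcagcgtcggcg
B2m, chr2:122147437-122147686, plus strand: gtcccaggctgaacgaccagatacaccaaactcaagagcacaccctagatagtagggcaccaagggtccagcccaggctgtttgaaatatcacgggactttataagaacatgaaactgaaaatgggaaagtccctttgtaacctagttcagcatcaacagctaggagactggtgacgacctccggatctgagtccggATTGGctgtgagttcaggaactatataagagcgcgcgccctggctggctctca
Over the aligned bases, H2-Q6 and H2-Q7 were identical at 205 of 210, or 97.6%, and H2-K1 matched H2-Q7 at 88.2% of 203. H2-K1, H2-Q6 and H2-Q7 each held all 3 letter patterns, and the B2m window held only CCAAT of the 3. The B2m stretches gaaactgaaa and gggaaagtccc resemble the other patterns with a longer gap and were not counted. Other spacings were not searched, so the B2m window is not shown to lack such elements. Of the 9 tested class I genes, B2m included, with a RefSeq promoter, CCAAT was in 9, GAANNGAAA in 6 and the reduced κB site in 5, to be read beside the shares over all promoters given above. No difference between the genotypes is attached to these letters.

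Of the 30 other class I genes, 10 were tested, 5 were counted but too low and 15 were at 0 in every heart. H2-Q4, a gene of the Q region, had 38.1, 41.4 and 22.4 CPM in resistant hearts and 39.9, 32.1 and 24.5 CPM in sensitive hearts. H2-T23, which encodes Qa-1, the ligand of NKG2A on natural killer cells, had 28.1, 34.6 and 24.1 CPM in resistant hearts and 36.8, 31.9 and 25.9 CPM in sensitive hearts. H2-Q6 had 25.5, 25.9 and 10.3 CPM in resistant hearts and 30.6, 16.5 and 14.4 CPM in sensitive hearts. In these 3 genes the lowest heart was mouse 370, and in H2-T23 and H2-Q6 the highest was sensitive mouse 379. Their log2 fold changes were -0.08 (95% interval -0.49 to 0.33), 0.12 (95% interval -0.17 to 0.42) and -0.01 (95% interval -0.63 to 0.62), in that order.

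H2-Q7, encoding a Qa-2 chain, was singled out after its values were seen because it spread most within a genotype. It had 15.3, 16.4 and 6.13 CPM in resistant hearts and 20.1, 8.63 and 4.77 CPM in sensitive hearts. Within the sensitive genotype the highest heart was 4.21 times the lowest, and the genotype means stood 1.13-fold apart. The ratio of H2-Q7 to H2-Q6 was 0.332 in mouse 381 and 0.524 to 0.656 in the other hearts. H2-Q5, H2-Q6 and H2-Q7 share 14, 10.8 and 12% of their 100-base transcript windows with another gene, so reads of these genes could have been split or dropped in counting. The sum of H2-Q6 and H2-Q7 was 33.2 ± 14.5 CPM in resistant and 31.7 ± 16.8 CPM in sensitive hearts (SD, n = 3).

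The remaining tested class I genes, H2-T22, H2-T24, H2-K2, H2-M3, H2-Q5 and H2-T10, had log2 fold changes from -0.42 for H2-T10 to 0.26 for H2-K2, the latter on 64 to 108 counts per heart. H2-T24 was the steadiest in resistant hearts, at 12.2, 11.9 and 12.4 CPM. The 5 counted but untested genes, H2-Q10, H2-M2, H2-M5, H2-M6-ps and H2-T-ps, had at most 14 counts in any heart. Those at 0 in every heart were H2-Bl, H2-M1, H2-M9, H2-M11, H2-M10.1 to H2-M10.6, H2-M10.5-ps1, H2-Q1, H2-Q2, H2-Q3 and H2-T3. Over the whole set, 11 of the 52 genes carry a pseudogene biotype. H2-Ke6, which the name brings into the set, encodes a hydroxysteroid dehydrogenase and no MHC molecule, and it had 6 to 15 counts per heart and was not tested.

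**Figure D3:**
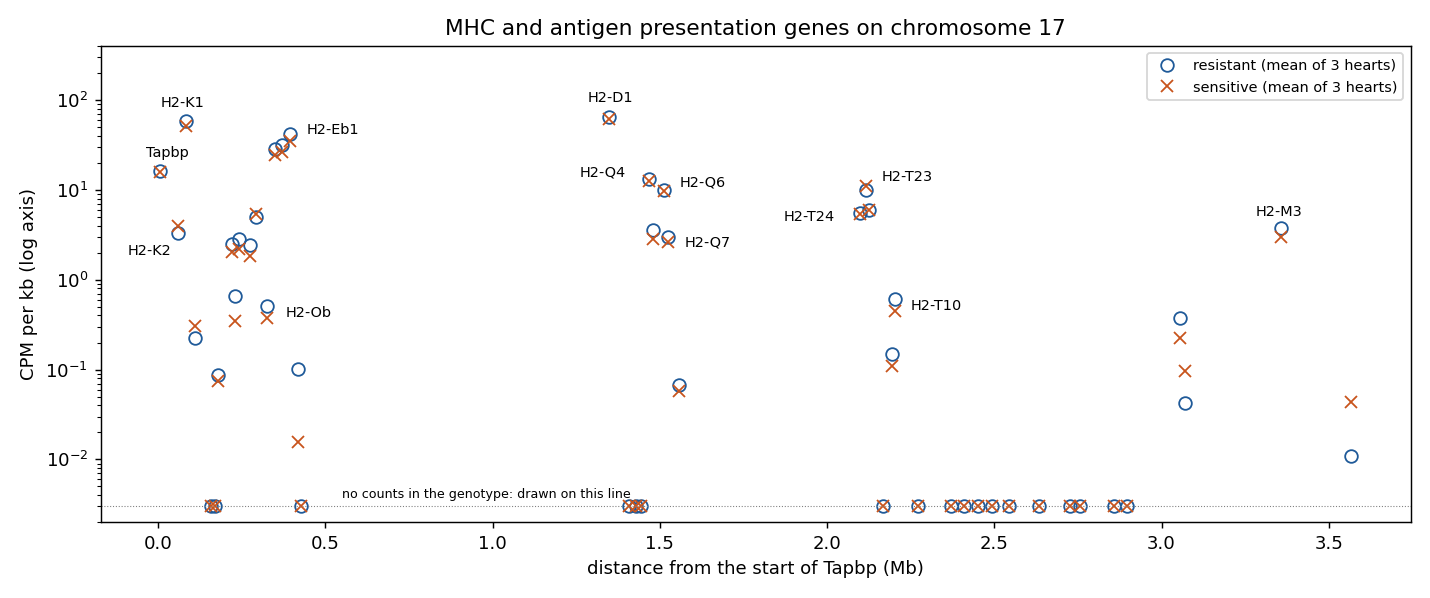
Mean CPM per kb of the genes of the set on chromosome 17 on a log axis against distance from the start of Tapbp in Mb. Circles are resistant and crosses sensitive means of 3 hearts, and genes without counts in a genotype are drawn on the dotted line; the abundant class II genes lie near 0.4 Mb, H2-D1 is the highest gene drawn, and genotype marks nearly coincide for the abundant genes.

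None of the 3 peptide supply and loading genes passed the test. Tapbp, tapasin, which bridges class I molecules to the TAP transporter, had 53.7, 54.8 and 54.0 CPM in resistant hearts and 59.4, 51.5 and 45.1 CPM in sensitive hearts. The sensitive hearts fell on both sides of the tight resistant range. The log2 fold change was -0.06 (SE 0.09, 95% interval -0.26 to 0.14), the narrowest interval of the set. The genomic span of Tapbp, introns included, overlaps that of Zbtb22 over 3421 bases on the same strand. Overlap of their exons was not computed, so the share of ambiguous reads is not known.

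Tap1 and Tap2 encode the subunits of the TAP transporter. Tap1 had 16.9, 14.4 and 8.69 CPM in resistant hearts and 12.9, 9.84 and 7.78 CPM in sensitive hearts. Tap2 had 22.7, 17.8 and 16.1 CPM in resistant hearts and 23.7, 20.9 and 16.6 CPM in sensitive hearts. The estimates had opposite signs, with log2 fold changes of -0.39 for Tap1 (SE 0.22, 95% interval -0.86 to 0.07, adjusted p = 0.427 by edgeR) and 0.12 for Tap2 (SE 0.14, 95% interval -0.19 to 0.42). The difference between them was not tested.

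Both transactivators were low. Nlrc5 had 10.98, 9.03 and 3.57 CPM in resistant hearts and 7.30, 5.84 and 3.94 CPM in sensitive hearts. Ciita had 3.29, 5.73 and 3.17 CPM in resistant hearts and 3.48, 3.42 and 2.85 CPM in sensitive hearts. Nlrc5 was lowest in mouse 370, and the higher resistant mean of Ciita came from mouse 369. The log2 fold changes were -0.47 for Nlrc5 (SE 0.32, 95% interval -1.14 to 0.21) and -0.32 for Ciita (SE 0.27, 95% interval -0.89 to 0.24), and without mouse 369 the Ciita value was 0.01. The genomic span of Ciita, introns included, overlaps that of Dexi on the opposite strand over 25888 bases. Overlap of their exons was not computed, and the strand setting of the counting was not given in the sources used here.

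Hearts of one genotype spread more widely in most of these genes than in the median gene of the heart. The within-genotype SD of log2 CPM had a median of 0.41 over the 26 genes and 0.16 over all genes tested. It was above the median of all genes in 25 of the 26, Tapbp being the exception. In all 26 genes, the highest heart exceeded the lowest of its own genotype, in the wider genotype, by a larger fold than separated the genotype means, but so it did in 88.5% of all genes tested, since single hearts are set against means of 3. Mouse 369 was the highest heart in 16 of the 26 genes. Mouse 381 was the lowest in 13 and mouse 370 in 11. Within genotypes, mouse 370 was the lowest resistant heart in 22 and mouse 381 the lowest sensitive heart in 21. All 8 tested class II and class II chaperone genes were highest in mouse 369. These genes are not independent of each other, so the counts describe hearts and not separate events.

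**Figure D4:**
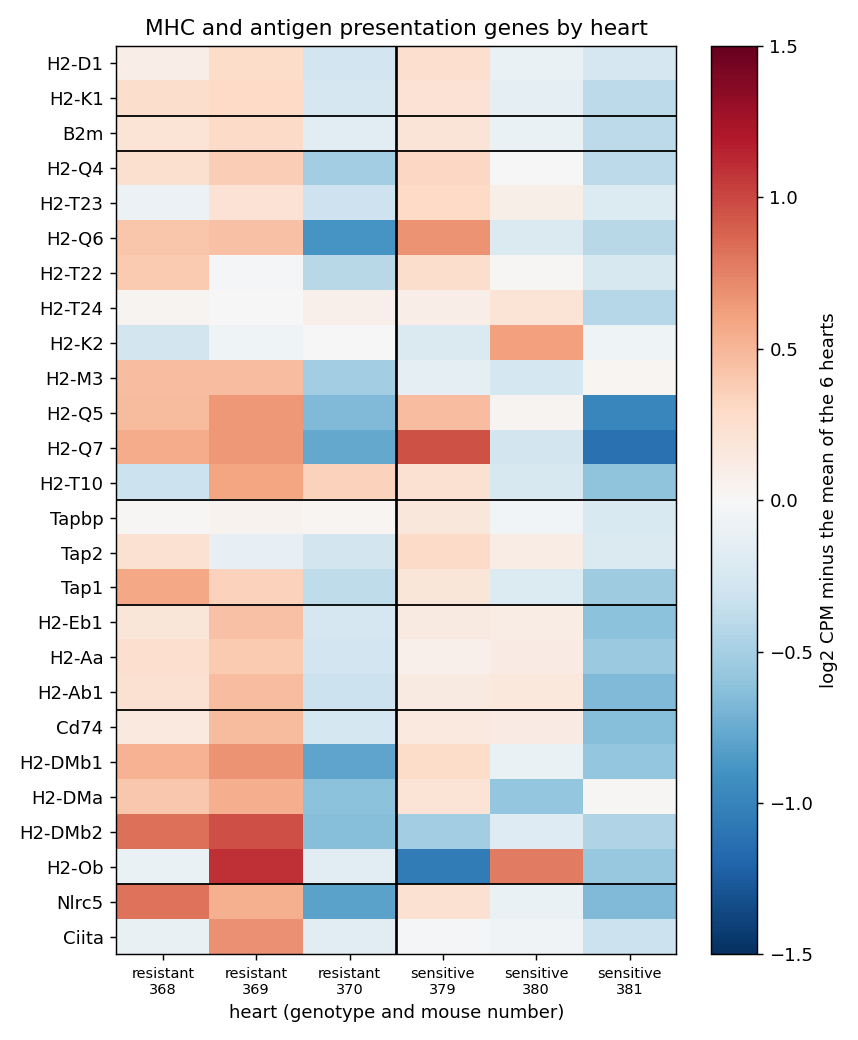
Log2 CPM minus the mean of the 6 hearts for each tested gene, by heart, with genotypes separated by a black line. Colour gives the difference on the log2 scale; mouse 369 is the highest heart in 16 of 26 genes, and mice 370 and 381 are the lowest in 11 and 13.

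Summed levels gave the same picture for both arms. Class I heavy chains summed to 505, 541 and 354 CPM in resistant hearts and 537, 419 and 352 CPM in sensitive hearts. Class II chains summed to 163, 188 and 114 CPM in resistant hearts and 151, 153 and 91.5 CPM in sensitive hearts. The genotypes overlapped in both sums, and mice 370 and 381 were lowest in each genotype. The class I mean was 467 ± 99.1 CPM in resistant and 436 ± 93.7 CPM in sensitive hearts, 6.59% lower, and the class II mean was 155 ± 37.7 and 132 ± 34.9 CPM, 15.2% lower (SD, n = 3). Both differences were smaller than the SD within a genotype. The ratio of the class II to the class I sum was 0.323, 0.348 and 0.323 in resistant hearts and 0.281, 0.364 and 0.260 in sensitive hearts. It overlapped between the genotypes, and no difference between class I and class II was tested.

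Markers of cells that carry class II were counted beside these levels. Among all genes tested, 14.5% had an unadjusted p under 0.05 by edgeR and 51.6% had estimates below 0. DESeq2 called 3.65% of the genes to which it gave an adjusted p. The 17 macrophage and monocyte markers summed to 526, 683 and 438 CPM in resistant hearts and 475, 458 and 387 CPM in sensitive hearts, with overlap. Of the 16 tested, 0 passed by edgeR, 6 had an unadjusted p under 0.05, all lower, where 7.27% of all genes tested were lower at that p, and DESeq2 called 2. Point estimates were below 0 in 15 of the 16. The 2 were Mrc1, the mannose receptor (log2 fold change -0.52, adjusted p = 0.0549 by edgeR and 0.00657 by DESeq2), and C1qa, a chain of complement C1q (-0.46, 0.118 by edgeR and 0.0395 by DESeq2). B cell markers summed to 32.9, 39.8 and 31.3 CPM in resistant hearts and 25.7, 35.6 and 16.9 CPM in sensitive hearts. Of their 11 tested genes, 11 had estimates below 0, 0 passed by edgeR or DESeq2 and 3 had an unadjusted p under 0.05, led by Blk, a B cell kinase, at -0.55 (adjusted p = 0.162 by edgeR). Dendritic cell markers summed to 53.3, 58.0 and 46.3 CPM in resistant hearts and 44.7, 51.5 and 38.2 CPM in sensitive hearts. Of their 11 tested genes, 7 had estimates below 0 and 4 above, up to 0.37 for Xcr1, a chemokine receptor. None passed by edgeR or DESeq2, and 2 had an unadjusted p under 0.05, Irf8 and Zbtb46, transcription factors of these cells, both with estimates below 0. The part of these cells in the class II levels was not tested.

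Other cell types were checked in the same way. T and NK cell markers were scarce, with 2 of 14 tested, Cd4 and Trac, and 0 calls by either tool and 0 with an unadjusted p under 0.05. Of the thymus and lymphoid tissue markers, Dntt, Rag2, Foxn1 and Ccl21a were at 0 in every heart and 2 genes were tested, with 0 calls by either tool and 0 with an unadjusted p under 0.05. The sum of cardiomyocyte markers was 51626 to 65621 CPM over all hearts, highest in mouse 370 and lowest in mouse 369. Within each genotype, the order of the hearts was the reverse of the class II order. This match was seen after the values were known and was not tested. Sensitive mice 379 and 380 were nearly level in the class II sum, at 151 and 153 CPM. Of the cardiomyocyte markers, 0 of 10 passed in either tool or had an unadjusted p under 0.05. Of 10 endothelial markers, Fabp4, a fatty acid binding protein, rose by a log2 fold change of 0.39 (adjusted p = 0.0358 by edgeR). Estimates were below 0 in 7 of the 10 endothelial markers, and of the 3 with an unadjusted p under 0.05 the other 2 were lower, Kdr, a receptor of vascular endothelial growth factor, at -0.50 (adjusted p = 0.0694 by edgeR) and Emcn, endomucin, at -0.31 (adjusted p = 0.125 by edgeR). Of 10 fibroblast markers, 0 passed by edgeR and 3 had an unadjusted p under 0.05, all lower. Only 1, Col1a1, was called by DESeq2 (-0.41, adjusted p = 0.0743 by edgeR and 0.0120 by DESeq2). Over all genes tested, 14.5% had such an unadjusted p and 7.27% were lower at it. Estimates were below 0 in 51.6% of all genes tested, and 1.44% had an adjusted p under 0.05 by edgeR. DESeq2 called 3.65% of the genes to which it gave an adjusted p. Fibroblast markers summed to 2237 ± 156 CPM in resistant and 2322 ± 147 CPM in sensitive hearts (SD, n = 3). The endothelial sums were 1700 ± 148 and 1703 ± 128 CPM.

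**Figure D5:**
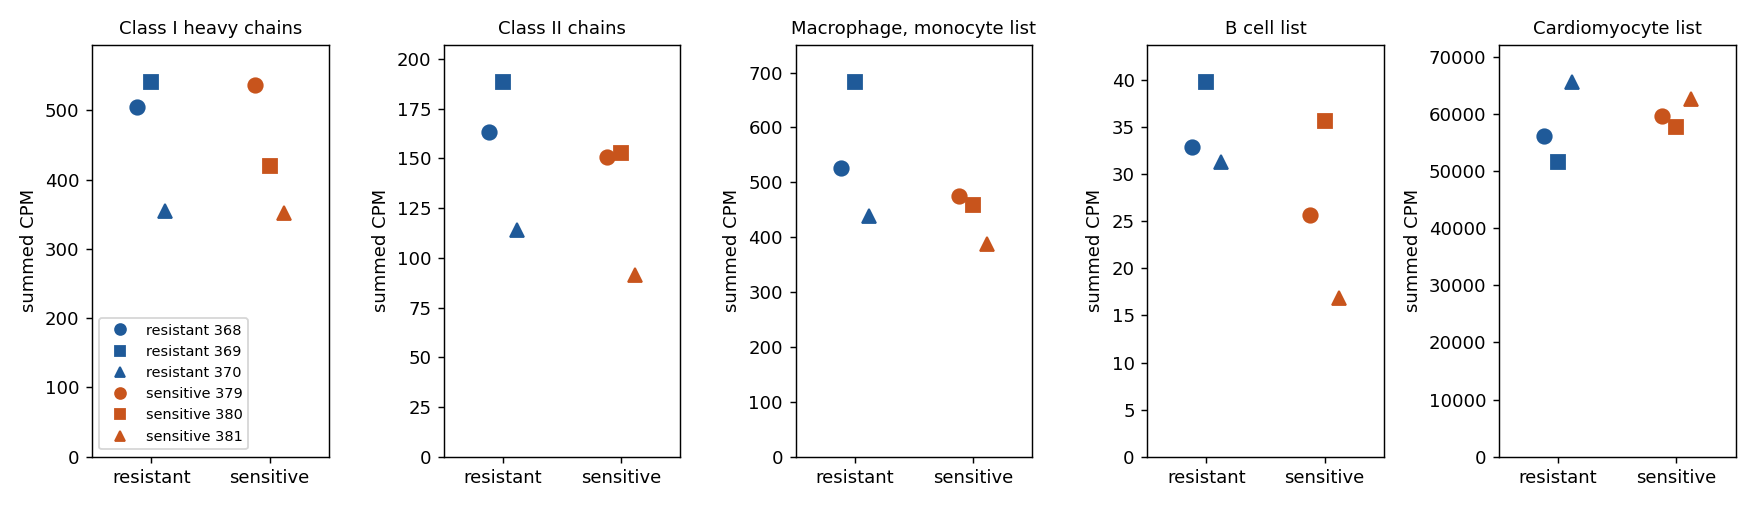
Summed CPM of class I heavy chains, class II chains and 3 marker lists in each heart on linear axes from 0. Each point is a heart, coloured by genotype; class II sums run from 91.5 to 188 CPM and overlap between genotypes, as do the macrophage and monocyte sums of 387 to 683 CPM.

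Genes that work beside the MHC molecules were counted from separate lists. For comparison, 14.5% of all genes tested had an unadjusted p under 0.05 by edgeR. The CPM of the genotypes did not overlap in 20% of them, and estimates were below 0 in 51.6%. DESeq2 called 3.65% of the genes to which it gave an adjusted p. Of 18 further class I pathway genes (chaperones, proteasome subunits and peptidases), 0 passed by edgeR and 2 had an unadjusted p under 0.05. Hspa5, the endoplasmic reticulum chaperone BiP, had 630, 587 and 776 CPM in resistant hearts and 487, 558 and 539 CPM in sensitive hearts. The genotypes did not overlap, and the log2 fold change was -0.33 (95% interval -0.54 to -0.13, adjusted p = 0.111 by edgeR and 0.0129 by DESeq2), so the call depended on the tool. Pdia3, the thiol oxidoreductase ERp57 of the peptide-loading complex, stood at a log2 value of -0.20 (adjusted p = 0.298 by edgeR). Of 14 class II pathway genes, 0 passed by edgeR or DESeq2 and 3 had an unadjusted p under 0.05, 2 lower and 1 higher in sensitive hearts. Estimates were below 0 in 8 and above 0 in 6. Ctss, cathepsin S, which trims the invariant chain, had 19.7, 24.9 and 18.0 CPM in resistant hearts and 17.7, 15.9 and 13.3 CPM in sensitive hearts, without overlap (log2 fold change -0.42, adjusted p = 0.162 by edgeR). Creb1, a factor that binds class II promoters, had -0.21 (adjusted p = 0.239 by edgeR). Ctsd, cathepsin D, an endosomal protease, went the other way at 0.16 (adjusted p = 0.334 by edgeR). Of the class I-like genes, 6 of 11 were tested, 0 passed by either tool and 1 had an unadjusted p under 0.05, Ulbp1, a ligand of NKG2D.

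Interferon-stimulated genes, of which the MHC genes are a part by their regulation, were counted from a list of 37 others. Of the 36 tested, 0 passed by edgeR or DESeq2 and 9 had an unadjusted p under 0.05, 8 of them lower in sensitive hearts. Over all genes tested, 14.5% had such a p and 7.27% were lower at it. Point estimates were below 0 in 32 of 36, against 51.6% of all genes, with a median log2 fold change of -0.24. Ddx58, the RNA sensor RIG-I, had 19.1, 19.97 and 18.3 CPM in resistant hearts and 15.6, 14.99 and 13.6 CPM in sensitive hearts. Gbp3, a guanylate-binding protein, had 25.6, 25.5 and 15.4 CPM against 16.5, 15.9 and 13.1 CPM. Ddx58 did not overlap between genotypes and Gbp3 did, through mouse 370. Their log2 fold changes were -0.37 and -0.55, with adjusted p of 0.108 and 0.129 by edgeR. Estimates of the list ran from -1.18 to 0.49. With no filter on low counts, edgeR called Iigp1 higher in sensitive hearts, at 0.49 (adjusted p = 9.37e-07). In that fit it called Gbp3 and Oasl2 lower. The summed level of the list was 675, 595 and 443 CPM in resistant hearts and 621, 532 and 464 CPM in sensitive hearts, so that mice 370 and 381 were the lowest of their genotypes here too.

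The other genes of the H2 region on chromosome 17 had estimates on both sides of 0. Between the first and the last H2 gene (33974831 to 37483552), 272 other genes are annotated and 79 were tested. None passed by edgeR, 14 had an unadjusted p under 0.05, of which 12 were higher and 2 lower in sensitive hearts, and DESeq2 called 1. Over all genes tested, 14.5% had such a p, 7.19% higher and 7.27% lower. DESeq2 called 3.65% of the genes to which it gave an adjusted p. The gene called by DESeq2 was Ehmt2, a histone H3 lysine methyltransferase, with a log2 fold change of 0.33 (adjusted p = 0.0555 by edgeR and 0.0161 by DESeq2). It was followed by Ppt2, a lysosomal thioesterase, at 0.47 (adjusted p = 0.133 by edgeR). The median log2 fold change of the 79 was 0.04, against -0.23 for the 26 tested MHC and antigen presentation genes, and this difference was not tested.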

How the data were processed

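RNA from whole hearts of separate mice, 3 per genotype, was sequenced by a company. Per the submitters' processing notes, the tools were fastp, STAR and featureCounts with build mm10. Versions, annotation release and strand setting were not given in the sources used here. The authors deposited raw counts per gene without normalization. A deposited table of the authors' own DESeq2 comparison, with fold changes and p-values, was not used.

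Counts were tested in R 4.3.3 with edgeR 4.0.16 (TMM, filterByExpr with minimum count 10 and total 15, quasi-likelihood test, Benjamini-Hochberg adjustment over 14866 genes, threshold 0.05). Hearts had 19309312 to 20470065 counts and a biological coefficient of variation of 11.1%. The test was first checked on simulated data. Intervals are 95%. Permuting 3 against 3 hearts exactly gives no two-sided p below 0.1, so no such test was used. Promoter sequences and annotation came from RefSeq and GENCODE M21.

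The genes and lists were chosen with earlier results of these data known. Named were the genes counted almost only in one genotype, the 3 highest per length in each MHC class, H2-K1, H2-D1, H2-Aa, H2-Ab1, H2-Eb1, the H2-Ea gene, the genes named outright in the selection, and from each list the called genes or the lowest p. Any other gene named was chosen after its values were seen. Alternatives were DESeq2 1.42.0, RLE and upper-quartile factors, other filters on low counts, leaving out globin and mitochondrial genes, a robust prior in edgeR, a threshold of 0.1 and leaving out each heart. Leaving out mice 370 and 381 together was chosen after seeing the data. Of the class II pathway list, 2 of 16 names were not matched.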

Additional observations from a re-analysis of the deposited data

How the results depend on the processing

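No MHC or antigen presentation gene passed the threshold under any alternative, and the lowest adjusted p of any of the 26 was 0.106, for Nlrc5 without mouse 370. The number with an unadjusted p under 0.05 depended on single hearts, against 0 as reported. It was 11 of 28 genes without mouse 370, 4 of 26 without mouse 379 and 1 of 28 without mouse 380. It was 6 of 28 without mice 370 and 381 together and 8 of 34 with no filter. With at least 10 counts in every heart it was 1 of 26. The share of all genes at that p was not computed in these fits. The median log2 fold change of the genes tested ran from -0.40 without mouse 370 to -0.02 without mouse 381, and the number of the 26 below 0 from 15 without mouse 381 to 25 without mouse 379. The log2 ratio of the class I sums ran from -0.27 to 0.04 when hearts were left out, the last without mouse 381, and that of the class II sums from -0.41 to -0.03.

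Of 364 alternative values of the 26 genes, 27 had the other sign, 22 of them with 1 heart left out. The lowest and highest log2 fold changes with 1 heart left out were -0.47 and 0.012 for Ciita, -0.22 and 0.070 for H2-D1, -0.031 and 0.42 for H2-K2, -1.18 and 0.062 for H2-Ob, -0.30 and 0.092 for H2-Q4, -0.64 and 0.0062 for H2-Q5, -0.42 and 0.20 for H2-Q6, -0.91 and 0.19 for H2-Q7, -0.17 and 0.23 for H2-T22, -0.0012 and 0.28 for H2-T23, -0.18 and 0.11 for H2-T24, -0.0026 and 0.27 for Tap2, and -0.16 and 0.036 for Tapbp. H2-T22 was -0.012 with upper-quartile factors and -0.0011 with at least 10 counts in every heart. Without mice 370 and 381 together, H2-T22 was -0.057, H2-T24 0.13 and Tapbp 0.034. The cause of these changes was not tested.

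Among other genes, the 0 calls of the H2 interval became 1 with DESeq2, 1 with the robust prior and 1 at an adjusted p under 0.1 (Ehmt2), and 3 with no filter (Ehmt2, Ppt2 and Hspa1a). The 0 class I pathway calls became 1 with DESeq2 and 1 with no filter (Hspa5), and the 0 class II pathway calls 1 with no filter (Ctss). The 0 interferon-stimulated calls became 3 with no filter (Iigp1, higher, and Gbp3 and Oasl2, lower) and 1 without mice 370 and 381 together (Gbp3). They were 0 to 1 with 1 heart left out: Iigp1, higher, without mouse 368 and Gbp3, lower, without mouse 370. No paired analysis was possible because the mouse numbers are not shared between the genotypes. Calls over all genes were 214 with edgeR, 403 with DESeq2, 618 with no filter and 80 to 158 with 1 heart left out, in fits of 5 hearts. The 95% intervals of H2-DMb2, H2-Ob, H2-T10, Nlrc5, H2-DMb1, H2-Q5 and H2-Q7 reached below -1 on the log2 scale.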
